A study of Mus musculus with 8 samples.

Results

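Loricrin, involucrin and the filaggrin-type proteins are building materials of the stratum corneum, the dead outer layer of the skin. They were followed here in the epidermis of mouse embryos as 8 listed genes: Lor (loricrin), Ivl (involucrin), Flg (filaggrin), Flg2 (filaggrin 2), Hrnr (hornerin), Rptn (repetin), Crnn (cornulin) and Tchhl1 (trichohyalin-like 1). The genes were listed by name, as the 2 classic envelope proteins of the epidermis and the genes of the fused S100 type. Of these 8 genes, 7 had a count in the files, out of 23146 genes in all, and 6 passed the filter on low counts. Flg had no count of its own and is not analysed here beyond its position and promoter, and Tchhl1 had too few counts for the test. Tchh (trichohyalin), which belongs to the same fused S100 family, is given beside them.

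Epidermis of 4 groups was sequenced, with 2 libraries each. Controls were Nir floxed embryos at E15.5 or E17.5 (embryonic days), and knockouts were Nir floxed embryos carrying Krt14-Cre at the same days. Nir is the gene Noc2l, Cre was driven by the keratin 14 promoter of basal keratinocytes, and the floxed alleles were common to all groups. The aim in the series title was to learn what Nir does in epidermis during development. The labels give no strain, sex or floxed exon, and do not say whether a library came from 1 embryo or a pool.

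When keratinocytes leave the basal layer they switch on these genes in sequence and cornify. Involucrin and later loricrin are laid down under the cell membrane and cross-linked by transglutaminases into the cornified envelope. The fused S100-type proteins carry a calcium-binding S100 domain followed by long repeats. Profilaggrin, the best known, is stored in keratohyalin granules and cut into filaggrin, which bundles keratin filaments and is then broken down to amino acids that hold water. All of these genes lie in 1 cluster, the epidermal differentiation complex, on mouse chromosome 3.

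In the RefSeq annotation of GRCm38.p6, Lor lies on the minus strand at chr3:92080271-92083142 and Ivl on the minus strand at chr3:92570899-92573790. The fused S100-type genes follow on the plus strand in the order Crnn (chr3:93144789-93149818), Flg2 (chr3:93197273-93221377), Flg (chr3:93273546-93293689), Hrnr (chr3:93319749-93333572), Rptn (chr3:93393699-93399442), Tchh (chr3:93442330-93449077) and Tchhl1 (chr3:93468754-93471980). The start of Ivl is 490.628 kb from that of Lor, and Crnn, Flg2, Hrnr and Rptn, the tested listed genes of the fused S100 type, start 1064.518 to 1313.428 kb from it.

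The promoters are shown because 7 of the 9 genes, the 8 listed and Tchh, share 1 short motif close to the start. RefSeq promoter windows, from 250 bases before to 50 bases after each annotated start, were searched on both strands for TGANTCA, the core of the AP-1 type site that Fos and Jun factors are known to bind. The motif was chosen after the sequences had been read. Each stretch below is written 5′ to 3′ on the gene's strand with 20 bases on either side, and the capitals mark the match.
Lor, chr3:92083164-92083210, minus strand: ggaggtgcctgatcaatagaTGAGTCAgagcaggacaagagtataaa
Ivl, chr3:92573825-92573871, minus strand: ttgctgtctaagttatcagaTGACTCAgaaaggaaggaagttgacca
Crnn, chr3:93144673-93144719, plus strand: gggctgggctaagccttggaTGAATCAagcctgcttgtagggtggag
Flg2, chr3:93197184-93197230, plus strand: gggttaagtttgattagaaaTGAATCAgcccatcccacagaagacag
Flg, chr3:93273423-93273469, plus strand: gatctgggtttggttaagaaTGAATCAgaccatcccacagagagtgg
Rptn, chr3:93393583-93393629, plus strand: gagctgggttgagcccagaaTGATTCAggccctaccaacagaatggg
Tchhl1, chr3:93468647-93468693, plus strand: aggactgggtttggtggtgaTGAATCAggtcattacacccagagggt

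Of 32851 RefSeq promoter windows of the same length, 7.8% held TGANTCA. Lor and Ivl carried the form TGAGTCA and its reverse complement TGACTCA, found in 5.2% of windows. The 5 fused S100-type genes with a match carried TGAATCA or its reverse complement TGATTCA, found in 2.8% of windows. Each of these 7-base forms is also a TGANTCA match, so the counts overlap. The 5 fused S100-type genes are of the same family, and the stretches of Flg2 and Flg resemble each other beyond the motif. Their matches need not be independent. The matches began from 116 bases (Ivl) to 48 bases (Lor) before the start on which the window was built. For Ivl that start lies 55 bases inside the gene's annotated range given above, and for the other genes it is the first base of that range. The windows of Hrnr and Tchh held no TGANTCA. The TATA-type motif TATAAA or its reverse complement was found in 6 of the 9 windows and in 13.6% of all. Of the other motifs searched, AACCNGTT (Grainyhead type) was found in 1 of the 9 windows and in 2.1% of all, and CCACCC (Klf type) in 4 of the 9 and in 31.5% of all, each with its reverse complement. A match is a description of the sequence, and these libraries hold no measure of binding.

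The 8 libraries held 25223874 to 28892685 counts on named genes, so 3 counts in a library were worth 0.0964 to 0.115 CPM (counts scaled to a common library size). Noc2l itself stood at 106.7 and 97.45 CPM in the E15.5 controls and at 95.65 and 91.58 CPM in the E15.5 knockouts, a log2 difference of -0.12 ± 0.10 (SE; edgeR quasi-likelihood adjusted p = 0.335). At E17.5 it stood at 105.5 and 120.7 CPM in controls and fell to 85.45 and 86.94 CPM in knockouts, by 0.39 ± 0.10 on the log2 scale (edgeR adjusted p = 0.00623, or 0.0525 without control replicate 2). The E15.5 libraries labelled knockout thus lay only slightly below controls in the targeted transcript, and that difference was not called. Where its reads lie relative to the deleted part is not given. The summed markers of dermal fibroblasts (10 genes) ranged from 31360 to 33340 CPM in E15.5 controls and 77570 to 96060 CPM in E15.5 knockouts, and from 27200 to 31440 CPM and 98360 to 104000 CPM at E17.5. Of these 10 genes, 10 rose at E15.5 and 9 at E17.5. Over all tested genes, 23.2% were called higher at E15.5 and 26.7% at E17.5, and 22.3% and 26.7% were called lower. These shares stand beside all marker counts in this paragraph. The summed markers of erythroid cells (5 of 5 rose at each stage) ranged from 5415 to 7599 CPM against 29260 to 54420 CPM at E15.5, and from 2203 to 2275 CPM against 23690 to 23840 CPM at E17.5. Endothelial (5 of 5), myeloid (4 of 4 with a count) and skeletal muscle markers (4 and 5 of 5) also rose in the knockouts. The 5 skeletal muscle markers summed to 5551 to 7104 CPM in E15.5 controls and 6790 to 7085 CPM in E17.5 controls. The controls labelled epidermis thus also held RNA of fibroblast and muscle markers. The 6 suprabasal keratinocyte markers, which check the labelled tissue, summed to 80320 to 83310 CPM in E15.5 controls and 4740 to 4950 CPM in E15.5 knockouts, and to 40170 to 52550 CPM and 1090 to 1253 CPM at E17.5. The 8 basal markers summed to 7007 to 7466 CPM and 1959 to 2027 CPM at E15.5, and to 7548 to 7579 CPM and 1140 to 1179 CPM at E17.5. All members of both keratinocyte lists fell at both stages. The part of these shifts in the results below was not tested, and in such bulk samples fewer keratinocytes and less RNA per keratinocyte cannot be told apart.

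**Figure D1:**
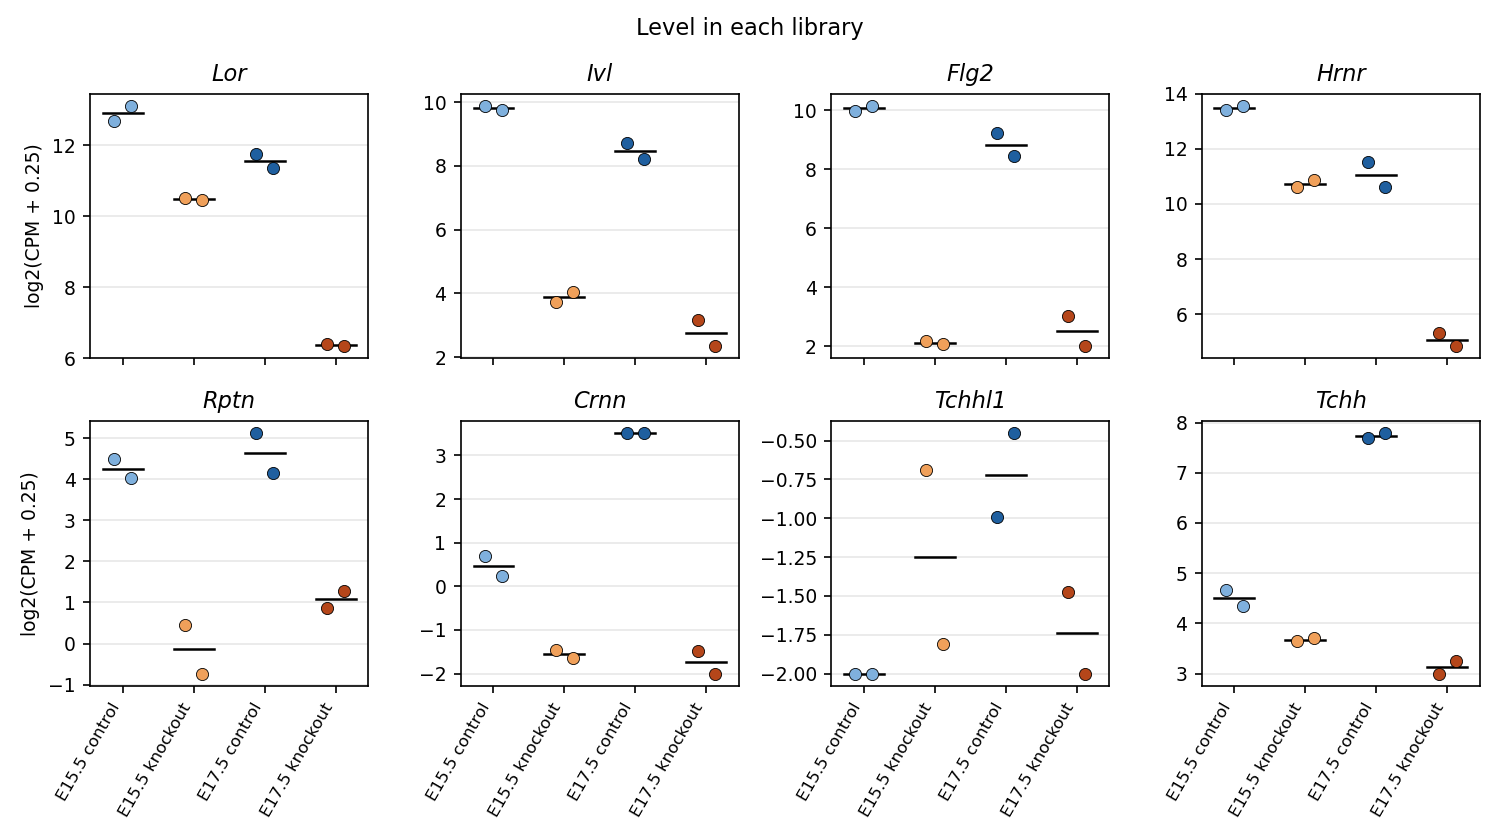
Level of each listed gene with counts, and of Tchh, in every library as CPM on TMM-scaled totals plus a small offset (log axis), with 1 point per library and 4 groups. Lor runs from 8858 CPM in an E15.5 control to 80.4 CPM in an E17.5 knockout, while Crnn and Tchh are highest in the E17.5 controls, at 11.2 and 222 CPM.

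At E15.5 all 6 tested genes fell in the knockout epidermis, with the smallest change in Lor and the largest in Flg2. Crnn is 1 of the 6 only because its control libraries passed the filter on low counts. Tchhl1, with more counts in E15.5 knockouts than in E15.5 controls, did not pass. Every count of the 6 genes below rests on the same filter. Over all 16341 tested genes, 22.3% were called lower and 23.2% higher in this comparison. The median log2 change of the 6 genes was -4.156, against -0.005 over all tested genes, of which 90% lay between -1.86 and 1.45. Called genes passed the edgeR quasi-likelihood test at a Benjamini-Hochberg adjusted p under 0.05. The listed genes, Tchhl1 included, held 1.91% and 2.22% of the named counts in the controls and 0.287% and 0.331% in the knockouts.

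Lor, the most abundant envelope protein of mature epidermis, stood at 6612 and 8858 CPM in the E15.5 controls and at 1468 and 1409 CPM in the E15.5 knockouts. Both knockout libraries lay below both controls yet still held more than 1000 CPM. Lor fell 5.38-fold (log2 change -2.43 ± 0.19, edgeR adjusted p = 1.53e-06). Ivl, an early scaffold of the envelope and a substrate of transglutaminases, stood at 951.4 and 855.1 CPM in controls and at 13.14 and 16.18 CPM in knockouts. The groups were far apart and the replicates close, and Ivl fell 61.6-fold (log2 change -5.94 ± 0.27, edgeR adjusted p = 3.32e-08).

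Among the fused S100-type genes, Flg2, whose product resembles filaggrin in structure and fate, stood at 1004 and 1139 CPM in controls and at 4.22 and 3.975 CPM in knockouts. Its 261-fold fall was the 16th lowest log2 change of all tested genes (-8.03 ± 0.37, edgeR adjusted p = 3.6e-08). Hrnr, a component of keratohyalin granules and of the envelope, was the most abundant listed gene in CPM, at 10960 and 12170 in controls, and stood at 1574 and 1853 CPM in knockouts. It fell 6.75-fold (log2 change -2.75 ± 0.27, edgeR adjusted p = 1.05e-05), so Lor and Hrnr kept over 1000 CPM where Ivl and Flg2 were left with under 20. Both knockout libraries of each of the 4 genes lay below both controls.

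The rarer fused S100-type genes also fell. Rptn, an envelope precursor, stood at 22.16 and 16.09 CPM in controls and at 1.111 and 0.3518 CPM in knockouts. It fell 26.3-fold (log2 change -4.72 ± 0.45, edgeR adjusted p = 8.24e-06), with a value of -5.75 without knockout replicate 1 and -4.1 without knockout replicate 2. Crnn, known mainly from oesophagus and other lining epithelia, had 36 and 24 counts in controls and 3 and 2 in knockouts, and fell 12.1-fold (log2 change -3.60 ± 0.58, edgeR adjusted p = 0.000407). Tchh, a structural protein of the hair root sheath and tongue, moved least, from 24.99 and 20.2 CPM to 12.22 and 12.77 CPM, a 1.81-fold fall (log2 change -0.85 ± 0.13, edgeR adjusted p = 3e-04).

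Tchhl1 was close to the limit of detection. Its counts were 0 and 0 in E15.5 controls, 10 and 1 in E15.5 knockouts, 7 and 15 in E17.5 controls, and 3 and 0 in E17.5 knockouts. With a floor of 3 counts over the 2 libraries of the control group together, the E15.5 knockout level was 3.47-fold higher. The 95% counting interval had a lower limit of 2.38 and no upper limit. It covers counting error only, and 10 of the 11 counts came from 1 library. When the filter on low counts was dropped, edgeR gave no call for Tchhl1 in either knockout comparison (adjusted p = 0.0753 at E15.5 and 0.114 at E17.5). Without E15.5 knockout replicate 2, Tchhl1 passed the filter, but the knockout group was then 1 library with 10 counts. No direction is drawn from that fit.

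At E17.5 the same 6 genes fell again, and those that had kept the most RNA at E15.5 were now low as well. In this comparison 26.7% of the 16341 tested genes were called lower and 26.7% higher. With library totals in place of TMM, 6285 genes were called lower and 3293 higher, against 4363 and 4366. The 6 genes had a median log2 change of -5.896, against -0.023 over all tested genes, of which 90% lay between -2.35 and 1.77. The listed genes held 0.816% and 0.542% of the named counts in E17.5 controls and 0.0134% and 0.0115% in E17.5 knockouts.

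Lor stood at 3458 and 2593 CPM in E17.5 controls and at 83.26 and 80.4 CPM in E17.5 knockouts. It fell 37-fold (log2 change -5.21 ± 0.21, edgeR adjusted p = 6.55e-09), and its knockout replicates were nearly equal. Ivl stood at 422.5 and 295.5 CPM in controls and at 8.655 and 4.816 CPM in knockouts, a 53.3-fold fall (log2 change -5.74 ± 0.27, edgeR adjusted p = 2.22e-08). Hrnr stood at 2936 and 1569 CPM in controls and at 39.44 and 28.29 CPM in knockouts, and fell 66.5-fold (log2 change -6.06 ± 0.32, edgeR adjusted p = 4.8e-08). Controls and knockouts of these genes did not overlap at either stage, a description without the share over all genes beside it.

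Flg2 stood at 593 and 348.1 CPM in E17.5 controls and at 7.888 and 3.738 CPM in E17.5 knockouts. It fell 81-fold (log2 change -6.34 ± 0.34, edgeR adjusted p = 6.13e-08), and its value was -7.00 without knockout replicate 1. Rptn stood at 34.86 and 17.54 CPM in controls and at 1.57 and 2.192 CPM in knockouts, a 13.9-fold fall (log2 change -3.79 ± 0.39, edgeR adjusted p = 1.07e-05). Crnn had 309 and 348 counts in controls and 3 and 0 in knockouts, and its fall was called (edgeR adjusted p = 3.81e-07). With 3 counts left against 657, the ratio of the controls to the knockouts was 206, with a 95% counting interval of 70.1 to 1000, which covers counting error only. Its fitted log2 change, which depends on the prior count of the fit, was -7.57, or -6.64 without knockout replicate 2. Without knockout replicate 1 no Crnn count was left in the knockout group. Tchh stood at 205.5 and 222 CPM in controls and at 7.742 and 9.309 CPM in knockouts, and fell 25.1-fold (log2 change -4.65 ± 0.14, edgeR adjusted p = 2.02e-09). For Tchhl1 the ratio of controls to knockouts was 6.89, with a 95% counting interval of 2.07 to 36.

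**Figure D2:**
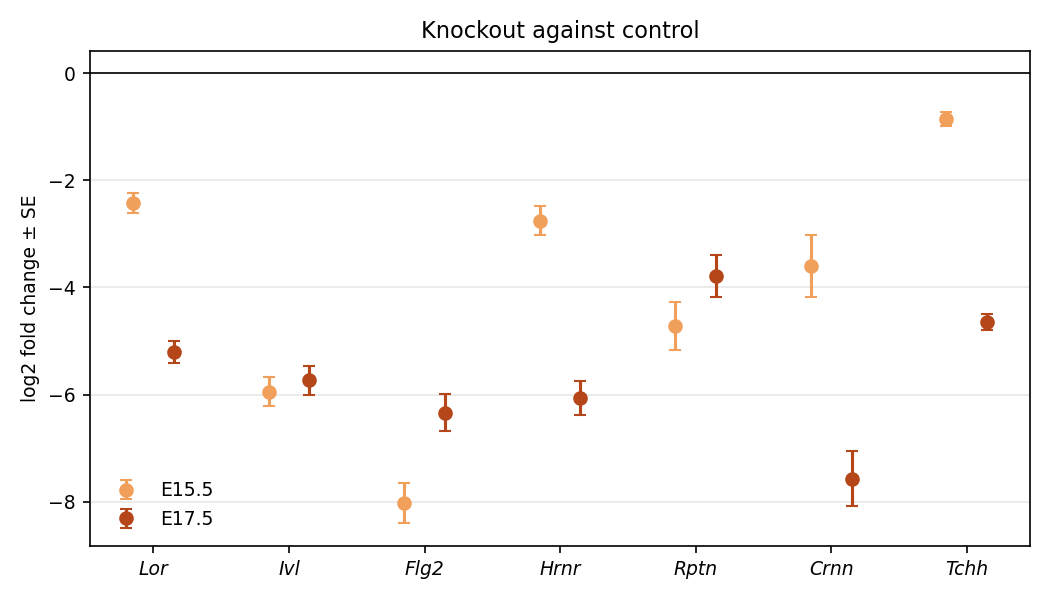
Log2 fold change of knockout against control from the edgeR fit, with its standard error, for the 6 tested genes and Tchh at E15.5 and E17.5. The points of Ivl nearly coincide at -5.94 and -5.74, while those of Lor (-2.43 and -5.21), Hrnr (-2.75 and -6.06) and Tchh (-0.85 and -4.65) are well apart.

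Lor, Hrnr and Tchh had a larger fall at E17.5 than at E15.5, tested as the difference between the knockout effects at the 2 stages. Over all tested genes, 2.47% were called lower and 1.87% higher in this difference. With library totals in place of TMM these were 655 and 140 genes, against 403 and 306. The effect was larger at E17.5 for Hrnr, by -3.30 ± 0.37 on the log2 scale (edgeR adjusted p = 0.000538), and for Lor, by -2.78 ± 0.25 (edgeR adjusted p = 0.000175). It was also larger for Tchh, by -3.79 ± 0.19 (edgeR adjusted p = 3.63e-06). For Ivl the difference was 0.21 ± 0.33 (edgeR adjusted p = 0.816) and for Rptn 0.92 ± 0.62 (edgeR adjusted p = 0.502), so no difference was called for either. For Flg2 the difference was 1.69 ± 0.43, toward a smaller effect at E17.5, and was not called (edgeR adjusted p = 0.0515). The Flg2 difference was called by edgeR with no filter on low counts (adjusted p = 0.0138) and with the replicate block (0.0259). It was not called by DESeq2 (adjusted p = 0.0924) or limma-voom (0.125). Over the libraries left out it ranged from 1.03 without E17.5 knockout replicate 1 to 2.12 without E17.5 control replicate 1. Crnn differed by -3.97 ± 1.16, which edgeR did not call (adjusted p = 0.0874) and DESeq2 did (adjusted p = 0.013). Over 16 alternatives its value ranged from -7.69 to -3.04. The lowest came without E17.5 knockout replicate 1, where the knockout group held no Crnn count.

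In control epidermis, most of these genes were lower at E17.5 than at E15.5. Of the 6 tested genes, 4 fell and 1 rose, where 7.71% of all tested genes were called lower and 3.18% higher. With library totals in place of TMM the split over all genes turned to 759 lower and 1483 higher, against 1260 and 519, and the median log2 change of all genes was 0.186 (-0.005 with TMM), while the calls of the listed genes did not change. Hrnr fell 5.14-fold between the days (log2 change -2.36 ± 0.27, edgeR adjusted p = 0.000442). Lor fell 2.56-fold (-1.35 ± 0.18, edgeR adjusted p = 0.000937) and Ivl 2.52-fold (-1.33 ± 0.22, edgeR adjusted p = 0.00267). Each of these genes was lower in both E17.5 controls than in both E15.5 controls.

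Flg2 fell 2.28-fold between the days in controls (log2 change -1.19 ± 0.27, edgeR adjusted p = 0.0149). That call was lost with DESeq2 (adjusted p = 0.0582), without E15.5 control replicate 2 (edgeR adjusted p = 0.108) and without E17.5 control replicate 2 (edgeR adjusted p = 0.121). Crnn rose 9.77-fold, from 1.359 and 0.9218 CPM to 11.2 and 11.18 CPM (log2 change 3.29 ± 0.34, edgeR adjusted p = 0.000224). The 3 markers of oral and oesophageal epithelium (Krt4, Krt13 and Krt76) summed to 161.2 to 227.3 CPM in E15.5 controls and 37.33 to 61.38 CPM in E17.5 controls. The source of the Crnn rise was not tested. Tchh rose 9.46-fold (log2 change 3.24 ± 0.13, edgeR adjusted p = 3.6e-07). Rptn changed by 0.45 ± 0.32 on the log2 scale and overlapped between the days (edgeR adjusted p = 0.472). Tchhl1 had no count at E15.5 and 22 at E17.5, 6.56-fold higher against a floor of 3 counts over the group. The 95% counting interval for Tchhl1 had a lower limit of 4.9 and no upper limit, and covers counting error only. With the filter on low counts dropped, edgeR gave no call for this change (adjusted p = 0.0741).

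In knockout epidermis, Lor, Hrnr and Ivl fell between the days, and no change was called for Flg2, Rptn or Crnn. Of the 6 genes, 3 fell and none rose by the edgeR test, where 6.92% of all tested genes were called lower and 6.2% higher. Hrnr fell 50.6-fold (log2 change -5.66 ± 0.31, edgeR adjusted p = 7.36e-07), the 17th lowest change of all tested genes, and Lor fell 17.6-fold (-4.14 ± 0.20, edgeR adjusted p = 4.7e-07). Ivl fell 2.18-fold (-1.12 ± 0.25, edgeR adjusted p = 0.0116), a call lost without E15.5 knockout replicate 2 (edgeR adjusted p = 0.0916) or E17.5 knockout replicate 2 (edgeR adjusted p = 0.08). Flg2 changed by 0.50 ± 0.34 on the log2 scale (edgeR adjusted p = 0.403) and Rptn by 1.37 ± 0.53 (edgeR adjusted p = 0.124). The Flg2 groups overlapped, while both E17.5 knockout values of Rptn lay above both E15.5 knockout values. Crnn had 5 counts at E15.5 and 3 at E17.5 in the knockouts, too few for a direction (edgeR adjusted p = 0.745). Tchh, which rose in controls, fell in knockouts (-0.55 ± 0.14, edgeR adjusted p = 0.0222). That call was lost with limma-voom (adjusted p = 0.0668), with only the 2 groups in the fit (edgeR adjusted p = 0.0606) and without E15.5 knockout replicate 1 (0.0594), E15.5 knockout replicate 2 (0.121) or E17.5 knockout replicate 1 (0.199).

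**Figure D3:**
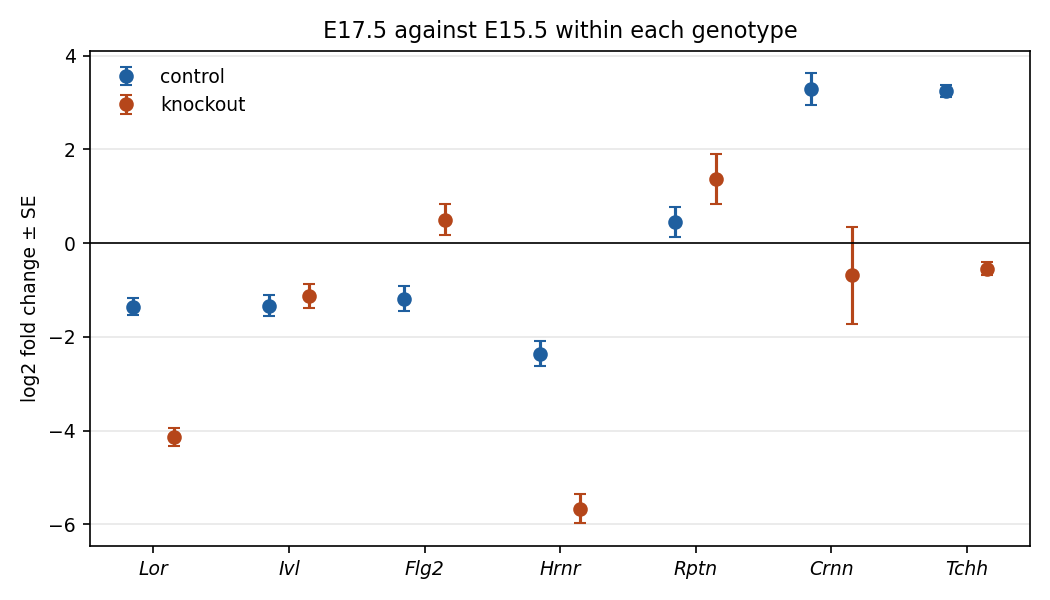
Log2 fold change from E15.5 to E17.5 within controls and within knockouts from the edgeR fit, with its standard error, for the 6 tested genes and Tchh. Hrnr and Lor lie lowest in the knockouts, at -5.66 and -4.14, and Crnn and Tchh lie highest in the controls, at 3.29 and 3.24.

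The knockout epidermis of E17.5 was also compared with the younger control epidermis of E15.5. All 6 genes fell in that comparison too, where 26.6% of all tested genes were called lower and 27.7% higher. The falls were 342-fold for Hrnr (log2 change -8.42 ± 0.35), 184-fold for Flg2 (-7.53 ± 0.36), 134-fold for Ivl (-7.07 ± 0.29), 94.5-fold for Lor (-6.56 ± 0.22) and 10.1-fold for Rptn (-3.34 ± 0.39). Without E17.5 knockout replicate 1 the log2 change of Flg2 was -8.17. Crnn had 3 counts against 60, a ratio of 21 with a 95% counting interval of 6.86 to 105. Levels of the E17.5 knockouts lay below those of the earlier control stage for each of these genes in both libraries. These comparisons share samples with those above.

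To compare the genes with each other, CPM was divided by transcript length. Tchhl1, close to the limit of detection, is left out of these orders. Crnn is left out in the knockouts, where no library held more than 3 of its counts. In E15.5 controls the order was Lor at 4350 ± 893 CPM per kb (SD, n = 2), Hrnr at 1090 ± 80.1, Ivl at 470 ± 35.4, Flg2 at 153 ± 13.5, Rptn at 4.61 ± 1.03, Tchh at 3.88 ± 0.581, and Crnn at 0.70 ± 0.19. Rptn and Tchh did not differ beyond their spread, while each other step exceeded it. Hrnr led in CPM and Lor per length, because the Hrnr transcript measures 10656 bases and that of Lor 1779.

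In E15.5 knockouts the order per kb was Lor at 809 ± 23.2 CPM (SD, n = 2), Hrnr at 161 ± 18.5, Ivl at 7.63 ± 1.12, Tchh at 2.15, Flg2 at 0.584 ± 0.0247 and Rptn at 0.176 ± 0.129. Flg2, ahead of Rptn and Tchh in controls, was thus below Tchh. In E17.5 controls Lor stood at 1700 ± 344 CPM per kb (SD, n = 2), Hrnr at 211 ± 90.7, Ivl at 187 ± 46.7, Flg2 at 67.1 ± 24.7 and Tchh at 36.7 ± 2. Crnn (6.87 ± 0.00932) and Rptn (6.32 ± 2.96) came last of the genes ordered. Hrnr and Ivl overlapped between libraries there, as did Crnn and Rptn. In E17.5 knockouts Lor was first at 46 ± 1.14 CPM per kb (SD, n = 2). Ivl (3.50 ± 1.41) and Hrnr (3.18 ± 0.74) overlapped, followed by Tchh at 1.46 ± 0.19, Flg2 at 0.829 ± 0.419 and Rptn at 0.454 ± 0.106. Lor was the first of these genes per length in all 4 groups.

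The ratio of Lor to Ivl per kb brings out the E15.5 knockouts. It was 7.51 and 11.2 in E15.5 controls, 121 and 94.1 in E15.5 knockouts, 8.84 and 9.48 in E17.5 controls, and 10.4 and 18 in E17.5 knockouts. Both E15.5 knockout libraries lay above all other libraries. Relative to Krt10, a keratin of the spinous and granular layers that fell at both stages (log2 change -3.80 ± 0.23, edgeR adjusted p = 2.51e-07, and -5.73 ± 0.25, edgeR adjusted p = 1.27e-08), the genes divided in E15.5 knockouts. Lor over Krt10 in CPM was 0.194 and 0.237 in E15.5 controls and 0.54 and 0.581 in E15.5 knockouts, and Hrnr over Krt10 was 0.321 and 0.325 against 0.579 and 0.764. Ivl over Krt10 was lower, at 0.0278 and 0.0229 in controls against 0.00484 and 0.00667 in knockouts, as was Flg2 over Krt10, at 0.0294 and 0.0304 against 0.00155 and 0.00164. Krt1, another suprabasal marker, averaged 39430 CPM in E15.5 controls and 369.3 CPM in E15.5 knockouts, beside 35790 and 2572 CPM for Krt10. Krt1 thus fell by a larger factor than Krt10 and Ivl, and the direction for Ivl depends on the keratin used.

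At E17.5 the ratios to Krt10 were closer between genotypes. Ivl over Krt10 was 0.0192 and 0.0169 in controls and 0.0194 and 0.0161 in knockouts, and Hrnr over Krt10 was 0.133 and 0.0897 against 0.0886 and 0.0946, with overlap in both. Lor over Krt10 was 0.157 and 0.148 in controls and 0.187 and 0.269 in knockouts, and Flg2 over Krt10 was 0.0269 and 0.0199 against 0.0177 and 0.0125, without overlap. Relative to Krt14, a keratin of the basal layer, Lor was at 2.29 and 1.59 in E17.5 controls and at 0.164 and 0.151 in E17.5 knockouts. At E15.5 the ratio of Lor to Krt14 was 4 and 6.09 in controls and 3.47 and 3.5 in knockouts, and that of Ivl to Krt14 was 0.576 and 0.588 against 0.0311 and 0.0401. With 2 libraries against 2, an exact permutation test cannot go below p = 0.333, so these ratios are given without a test. Krt10 and Krt14 were chosen after their values were seen.

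**Figure D4:**
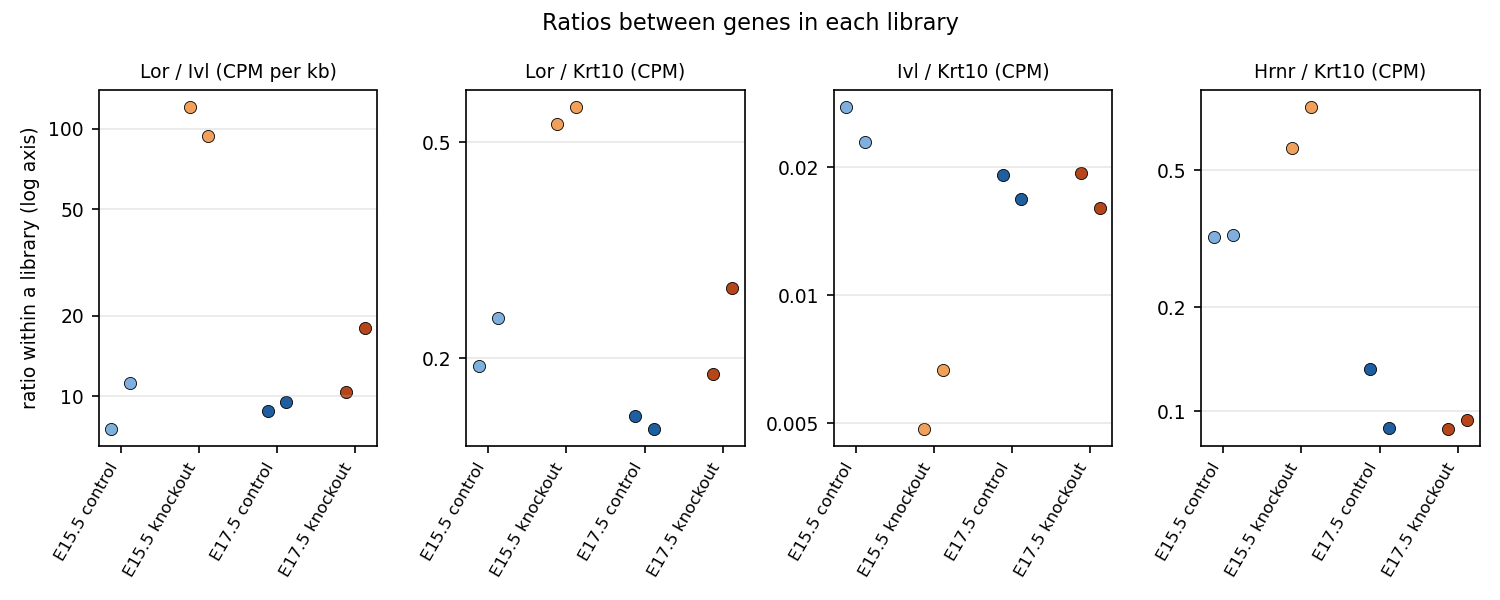
Ratios within each library (log axes) of Lor to Ivl per kb and of Lor, Ivl and Hrnr to Krt10 in CPM, with 1 point per library in the 4 groups. In E15.5 knockouts Lor over Krt10 is highest (0.54 and 0.581) and Ivl over Krt10 lowest (0.00484 and 0.00667).

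The genes most like Lor and Ivl over the 8 libraries were found by the root mean square difference of centred log2 CPM among the 13732 genes whose log2 CPM averaged 1 or more. For Lor these were Aadacl2 (0.239), Lce6a (0.295) and Il22ra1 (0.295). An offset of 0.25 CPM was added before the logarithm. Aadacl2 averaged only 0.1087 CPM in E17.5 knockouts, the level of 3 counts in a library, so the offset limits its fall in this search. Lce6a, a late cornified envelope gene of the same cluster, averaged 139.5 CPM in E15.5 controls, 24.84 in E15.5 knockouts, 58.62 in E17.5 controls and 2.03 in E17.5 knockouts, the order of the Lor levels. For Ivl they were Gm94 (0.268), Serpina12 (0.338) and Acer1 (0.359). Acer1, a ceramidase of differentiating keratinocytes, averaged 125.3, 3.7, 75.67 and 1.163 CPM in the same groups, and Serpina12 327.5, 10.13, 175.7 and 3.105 CPM. The search could not be made for Flg.

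The enzymes and scaffolds that build the envelope mostly fell with it. Of 10 listed genes, 8 fell and 2 rose at E15.5 (median log2 change -1.26), and 7 fell and 1 rose at E17.5 (median -2.549). For this and the lists that follow, the share of all tested genes called lower was 22.3% at E15.5 and 26.7% at E17.5, and the share called higher 23.2% and 26.7%. Tgm3, the transglutaminase that cross-links envelope precursors in the upper layers, fell at both stages, with log2 changes of -5.69 ± 0.18 at E15.5 (edgeR adjusted p = 4.67e-09) and -5.90 ± 0.18 at E17.5 (edgeR adjusted p = 2.02e-09). Tgm5, a related enzyme, fell by 7.28 ± 0.42 at E15.5 (edgeR adjusted p = 1.71e-07). Its knockout libraries held 0 and 7 counts against 519 and 548 in controls, so the size of this fall depends on the prior count of the fit. Evpl (envoplakin, a scaffold of the envelope) fell at both stages (-2.06 ± 0.13, edgeR adjusted p = 3.63e-07, and -3.99 ± 0.14, edgeR adjusted p = 4.12e-09), and Scel (sciellin, another envelope precursor) fell by 3.82 ± 0.19 at E17.5 (edgeR adjusted p = 3.17e-08). The risen genes, named after their values were seen, were Tgm2, the widely expressed transglutaminase, at both stages (0.52 ± 0.12 and 1.39 ± 0.12) and Anxa1 (annexin A1) at E15.5 (0.61 ± 0.15). At E15.5 the call of Tgm2 was lost without control replicate 2 (edgeR adjusted p = 0.058), and that of Anxa1 without control replicate 1 (0.065) or knockout replicate 2 (0.0688).

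The genes that process filaggrin and break it down fell at both stages, while Flg itself had no count. Of 13 listed genes, 12 fell and none rose at each stage by the edgeR test, with medians of -1.594 and -2.189. Hal (histidase, which turns histidine released from filaggrin into urocanic acid) fell at both stages, with log2 changes of -4.28 ± 0.21 at E15.5 (edgeR adjusted p = 6.04e-08) and -6.15 ± 0.24 at E17.5 (edgeR adjusted p = 5.74e-09). Casp14, a caspase of cornifying cells that cuts filaggrin, changed by -3.30 ± 0.17 (edgeR adjusted p = 8.99e-08) and -4.92 ± 0.19 (edgeR adjusted p = 5.22e-09). Klk5, a protease of the stratum corneum, changed by -2.15 ± 0.12 (edgeR adjusted p = 1.74e-07) and -4.16 ± 0.14 (edgeR adjusted p = 2.66e-09).

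Of 25 transcription factors known from terminal differentiation, 17 fell and 3 rose at E15.5 (median log2 change -1.033), and 15 fell and 5 rose at E17.5 (median -1.628). The risen genes thus made up a smaller share of the list than the 23.2% and 26.7% of all tested genes that were called higher. Trp63 (p63, the master factor of stratified epithelia) fell by 3.67 ± 0.16 at E15.5 (edgeR adjusted p = 2.86e-08). Tfap2c, an AP-2 factor, changed by -2.85 ± 0.13 (edgeR adjusted p = 3.32e-08) and -4.47 ± 0.15 (edgeR adjusted p = 2.3e-09) at the 2 stages. Its relative Tfap2a changed by -2.71 ± 0.13 at E15.5 (edgeR adjusted p = 4.99e-08), and Gata3 fell by 5.57 ± 0.22 at E17.5 (edgeR adjusted p = 5.22e-09). Among the AP-1 factors, Fosl1 (Fra-1) rose by 1.32 ± 0.29 (edgeR adjusted p = 0.00305) and 2.10 ± 0.29 (edgeR adjusted p = 0.000103), from levels near 2 CPM in controls. The more abundant Fosl2 fell at E15.5, from 251.8 and 320.5 CPM to 163.4 and 171.2 CPM (log2 change -0.77 ± 0.14, edgeR adjusted p = 0.000803), and at E17.5 (-0.41 ± 0.14, edgeR adjusted p = 0.0249). Its E17.5 call was lost without control replicate 1 (edgeR adjusted p = 0.118) or knockout replicate 1 (0.174). Junb fell at E15.5 (-0.57 ± 0.15, edgeR adjusted p = 0.0108), a call lost without control replicate 2 (0.116) or knockout replicate 1 (0.0711), and changed by 0.23 ± 0.15 at E17.5 (edgeR adjusted p = 0.224). Jun changed by -0.05 ± 0.13 at E15.5 (edgeR adjusted p = 0.787) and 0.30 ± 0.13 at E17.5 (edgeR adjusted p = 0.0717, or 0.0312 without control replicate 2). Fosl2, Junb, Jun, Fosl1 and the other risen genes, Arnt and Maf at both stages with Nfe2l2 and Jund at E17.5, were named after their values were seen. The E15.5 calls of Arnt (0.33 ± 0.10) and Maf (0.36 ± 0.11) were lost without E15.5 control replicate 1 (edgeR adjusted p = 0.0968 and 0.18), knockout replicate 1 (0.0523 and 0.0659) or knockout replicate 2 (0.128 and 0.0718), and that of Arnt also without control replicate 2 (0.0724). With library totals in place of TMM the E17.5 calls of Arnt and Nfe2l2 were lost (edgeR adjusted p = 0.0935 and 0.117).

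The other genes of the epidermal differentiation complex, taken by position from S100a1 to S100a11, moved in both directions. Of 61 genes, 49 were tested. At E15.5, 27 fell and 14 rose (median log2 change -1.006), and at E17.5, 24 fell and 19 rose (median -1.337), beside 22.3% lower and 23.2% higher, and 26.7% each way, over all tested genes. The risen share of the list at E15.5 was close to that of all genes. All 6 tested listed genes fell. The fallen genes included Lce1h, a late cornified envelope gene, which fell by 3.81 ± 0.24 at E15.5 (edgeR adjusted p = 3.09e-07), Pglyrp4, a peptidoglycan recognition protein (-4.93 ± 0.27, edgeR adjusted p = 1.22e-07), and S100a14 (-2.04 ± 0.14, edgeR adjusted p = 5.87e-07). At E17.5 they included Lce1c (-4.59 ± 0.21, edgeR adjusted p = 1.66e-08) and Lce6a (-4.85 ± 0.23, edgeR adjusted p = 1.9e-08). Lce genes resemble each other, so reads may be split among them. Of the risen genes, Sprr1a, a small proline-rich envelope precursor of stressed and embryonic epidermis, rose by 2.31 ± 0.28 (edgeR adjusted p = 5.51e-05) and 4.27 ± 0.31 (edgeR adjusted p = 6.49e-07) on the log2 scale. S100a9, an alarmin of myeloid cells and stressed keratinocytes, rose by 1.60 ± 0.34 (edgeR adjusted p = 0.00239) and 3.40 ± 0.36 (edgeR adjusted p = 1.14e-05). Sprr1a and S100a9 were named after their values were seen. Periderm markers, from the embryonic surface layer, rose in 4 of 5 genes and summed to 540.4 to 618.1 CPM in E15.5 controls and 2160 to 2210 CPM in E15.5 knockouts, and to 704.5 to 827.9 CPM and 895.1 to 1141 CPM at E17.5. Krt17, the marker that fell, made up most of the control sums. It averaged 496 and 324.8 CPM in E15.5 controls and knockouts, and 743.4 and 371.1 CPM at E17.5. The other 4 rose between E17.5 controls and knockouts, Krt6a from 13.39 to 456 CPM and Krt8 from 3.266 to 67.15 CPM. Krt18 went from 0.9109 to 77.77 CPM and Krt19 from 5.252 to 46 CPM. The part of the periderm in the rise of Sprr1a was not tested.

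**Figure D5:**
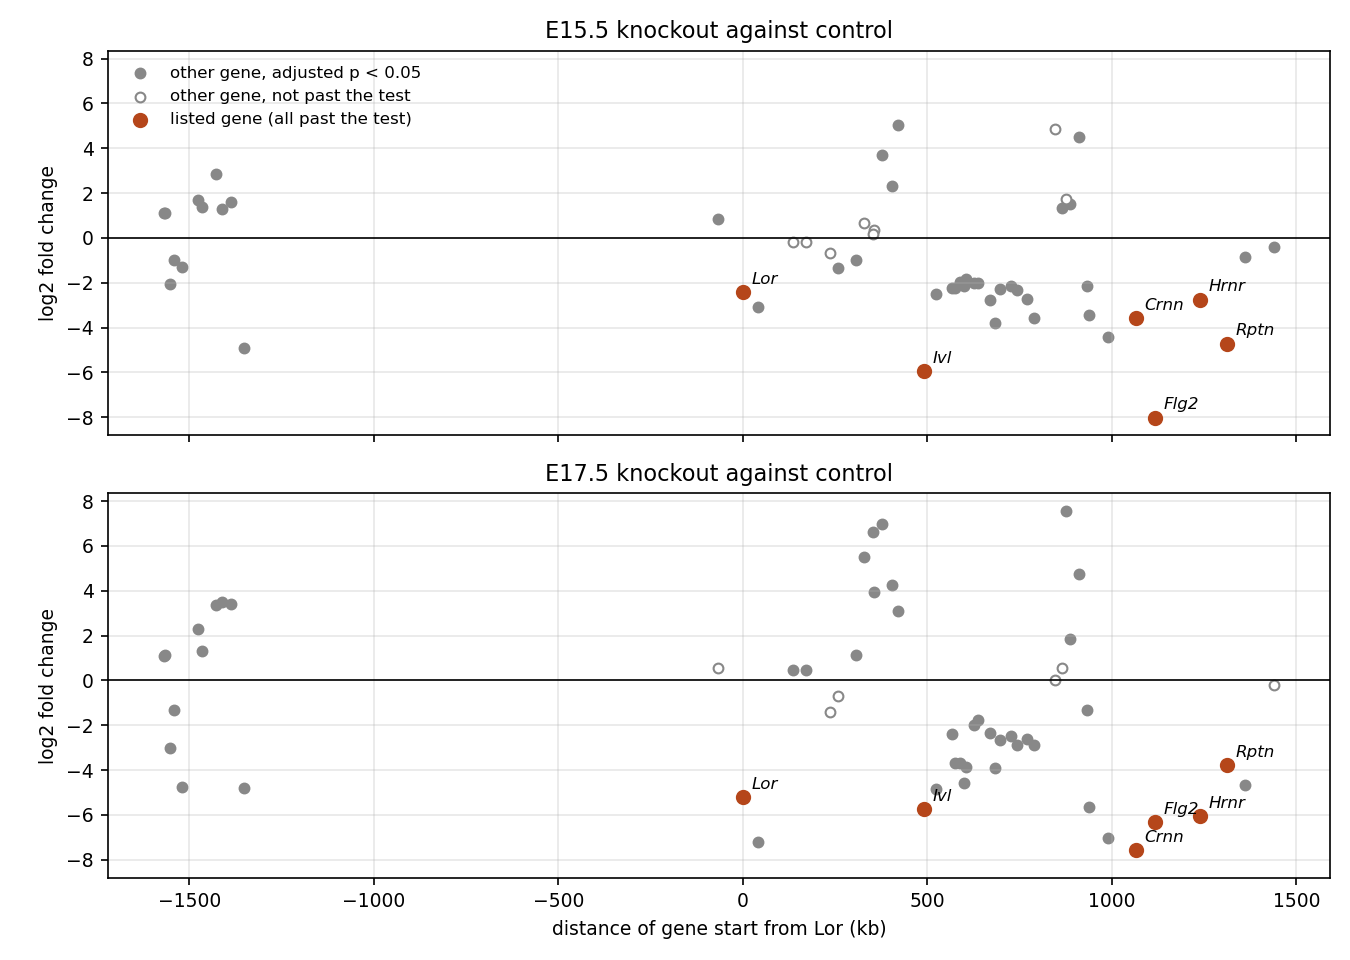
Log2 fold change of knockout against control along the epidermal differentiation complex, by the distance in kb of each gene's start from that of Lor, for E15.5 and E17.5. The 6 tested listed genes, large points, all lie below zero, from -2.43 (Lor) to -8.03 (Flg2) at E15.5, while other genes of the complex lie on both sides.

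The repeats of these genes bear on how their reads could be counted. Of the 50-base windows of a transcript, 79.2% occurred more than once within it in Flg, 66.6% in Hrnr, 26.3% in Flg2, 10.1% in Tchh and 5.5% in Rptn, against 0.4% in Ivl and 0% in Lor, Crnn and Tchhl1. Between the listed genes 0 windows were shared. How the authors treated reads with several matches is not given, so the level of Hrnr is uncertain, while its comparison between groups rests on the same transcript in every library. Hrnr and Rptn overlap the non-coding gene Gm37245 on the opposite strand, and Rptn overlaps Gm37857 on its own strand. With no strand setting given, their reads cannot be told apart.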

How the data were processed

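Total RNA of the epidermis was sequenced in 8 libraries. The authors deposited raw counts, a whole number for each RefSeq transcript. Alignment was to mm10 with TopHat 2 and counting with HOMER, per the labels' design text, and the HOMER version and strand setting are not stated there. Of 30521 transcripts, 29144 were named from a RefSeq table (GRCm38.p6) and 177 from GENCODE M21. The 1200 without a name held 3.14% of counts (1.8 to 4.64% per library) and were left out. A gene was represented by its transcript with the largest total. A further 8 columns, in joined stage tables without a header, were not used.

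Raw counts were tested with edgeR 4.0.16 in R 4.3.3: filterByExpr, TMM, and a quasi-likelihood model of 1 mean per group over all 8 libraries, with Benjamini-Hochberg adjustment over 16341 genes at 0.05. SE is the log2 change divided by the square root of F. CPM is on TMM-scaled totals. Lengths are from GENCODE M21. The code was tested on simulated data. Alternatives were DESeq2 1.42.0, limma-voom (limma 3.58.1), other size factors and filters, summed transcripts, only the groups compared, a replicate block, and each library left out.

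Members and lists were chosen with earlier results of these data known. Named were the listed genes and Tchh, up to 3 called genes of smallest adjusted p per partner list and knockout comparison, and the 3 genes most like Lor and Ivl. Replicates correlated at 0.989 to 0.991 (Pearson, log2 CPM). The labels number replicates without saying what they came from, so the p-values reflect only spread among samples, in part perhaps technical.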

Additional observations from a re-analysis of the deposited data

Results flagged for a closer look

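Knockout effects that differed between E17.5 and E15.5 by the edgeR interaction contrast, given as the log2 difference E17.5 minus E15.5, were found for Lor (-2.78), Hrnr (-3.30) and Tchh (-3.79). The envelope scaffolds Evpl (-1.93) and Scel (-2.61) and the filaggrin-processing genes Hal (-1.87), Casp14 (-1.63) and Klk5 (-2.01) also had larger falls at E17.5. The same held for the complex genes Lce1c (-2.43), Lce6a (-2.36) and S100a14 (-0.97), for the factors Gata3 (-2.31), Tfap2a (-1.29) and Tfap2c (-1.62), and for Krt10 (-1.93). Rises were larger at E17.5 for Sprr1a (1.96) and Tgm2 (0.87).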

How the results depend on the processing

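The falls of all 6 tested listed genes in knockouts at both stages were called in 17 of 17 alternatives, and those of Lor and Hrnr in the difference between stages in 16 of 16. Some counts moved. The difference had 1 listed gene called higher, Flg2, in place of 0 with no filter on low counts and with the replicate block (1.71, edgeR adjusted p = 0.0259), and 0 to 1 when libraries were left out. The replicate numbers did not pair the samples (correlations -0.08 to 0.07), and beyond that call the block changed no call of the 6 listed genes; it called Jun higher at E17.5 (adjusted p = 0.0362). Leaving out a library gave 0 to 1 listed genes called higher at E15.5 (0 with all), 1 to 2 envelope genes higher at E15.5 (2) and at E17.5 (1), 0 to 1 filaggrin-processing genes higher at E15.5 (0) and 1 to 3 transcription factors higher at E15.5 (3). Library totals gave 3 transcription factors higher at E17.5 in place of 5 and put the median log2 change of all genes at -0.235 for the knockout at E17.5 and -0.208 for the difference. Values not called that turned sign were Ivl in the difference (0.21; -0.01 with library totals, -0.03 without E17.5 control replicate 2, -0.29 to 0.55 over the libraries left out, lowest without E17.5 knockout replicate 1), Rptn in control stages (-0.13 without E17.5 control replicate 1, up to 0.87), Flg2 in knockout stages (-0.14 without E17.5 knockout replicate 1, up to 0.94), Crnn in knockout stages (0.26 without E17.5 knockout replicate 2, down to -4.39 without replicate 1, where no count was left), Jun at E15.5 (-0.19 to 0.11 over the libraries left out), Junb at E17.5 (-0.01 to 0.41) and Anxa1 at E17.5 (-0.03 with library totals). DESeq2 called 509 genes higher in the difference in place of 306. Leaving out a library lowered counts over all genes in the difference to as few as 255 lower (403) and 119 higher (306), in control stages to 492 lower (1260) and 180 higher (519), and in knockout stages to 712 lower (1130) and 452 higher (1013). The cause was not tested. Tchhl1 had under 25 counts in each group, so its levels carry a wide counting error. The listed gene called higher at E15.5 with a library left out was Tchhl1, with 10 counts in the 1 knockout library left.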
